A study of Mus musculus with 6 samples.

Results

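The genes described here are 39 genes of DNA damage signalling and repair, chosen by symbol from a list of known roles. They comprise the kinases and mediators that sense breaks, and the proteins of homologous recombination, end joining, base excision, nucleotide excision, mismatch repair and the Fanconi pathway. On the array, 38 of the 39 had at least 1 probe set that carries their symbol alone, out of 18193 genes measured, and Xrcc2 had none. Their levels were compared between mouse embryonic stem cells after deletion of Dcr (Dcr KO) and cells that kept it (Dcr WT). All cells came from a feeder-free line with both Dicer alleles floxed (Dicerflox/flox), grown on gelatin with serum and LIF. Dcr KO cells were transfected with GFP and Cre recombinase, and Dcr WT cells with GFP alone. RNA was taken from each after 5 days, on 3 arrays a group, which the study describes as biological triplicates of a polyclonal population. By that time, the study says, the Dcr KO cells were mostly Dcr null and most microRNAs were lost. No group received Cre while keeping Dcr, so Cre itself and the loss of Dcr cannot be told apart. Irradiation and doxorubicin, which the study used in other assays, are not named in the labels of these arrays, so the values describe cells not labelled as damaged.

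Cells meet a DNA break with the sensor kinases ATM and ATR, which phosphorylate mediators such as 53BP1 and MDC1 and the checkpoint kinases CHK1 and CHK2, so that the cycle halts while repair proceeds. Double-strand breaks are then repaired from the sister chromatid by homologous recombination, which runs in S and G2, or rejoined directly by end joining, which runs at any time. Damaged bases, bulky adducts, mispaired bases and interstrand crosslinks each have a pathway of their own. Mouse embryonic stem cells spend most of their cycle in S phase and are known to rely on homologous recombination heavily. Dcr, listed as Dicer1, encodes the nuclease that cuts microRNA precursors, and most microRNAs are lost without it. Much control of the damage kinases is by phosphorylation, which an mRNA array does not measure.

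The deposited values are log2 expression after GCRMA, a background correction and normalization for Affymetrix arrays, and the log2 values of a gene's probe sets were averaged. Differences are Dcr KO minus Dcr WT on the log2 scale, and a call is an adjusted p under 0.05 from limma over the 8782 genes whose mean over the 6 arrays reached 4, which is 16 on the linear scale. Dicer1 itself averaged 6.28 ± 0.34 in Dcr KO and 7.61 ± 0.40 in Dcr WT (SD, n = 3 each). The Dcr KO level was 39.7% of the Dcr WT level (adjusted p = 0.0134 from limma), and the groups did not overlap. The Dicer1 probe sets disagreed in size, at -1.84 (adjusted p = 0.0138 from limma over probe sets) and -0.82 (0.0908, not called). All 10 embryonic stem cell markers were measured above the minimum, with summed linear levels of 32268 to 33774 in Dcr KO and 29522 to 32338 in Dcr WT. Of the markers of other cells, 1 of 8 for fibroblasts, 1 of 6 for primitive endoderm, 2 of 5 for trophectoderm, 1 of 5 measured for streak and mesoderm and 2 of 6 for neural cells reached the minimum. The neural sum was 525 to 606 in Dcr KO and 327 to 379 in Dcr WT, nearly all of it Tubb3, a neuronal tubulin that was called higher (1.65-fold, adjusted p = 0.0100 from limma). Nes averaged 4.01 in Dcr KO and 4.09 in Dcr WT, and Pax6, Sox1, Neurog2 and Map2 lay under the minimum. The part of neural cells in the values of the repair genes was not tested. In cultures of mixed composition, fewer cells of a type and less RNA per cell cannot be told apart.

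For most repair genes the difference between Dcr KO and Dcr WT was within 1.5-fold. Of the 38 measured genes, 33 reached the minimum and were tested, and 2 were called. Xrcc4, the scaffold of DNA ligase IV in end joining, rose 1.87-fold in Dcr KO, and Brca2, the loader of the recombinase in homologous recombination, fell to 61.6% of its Dcr WT level. The 1 gene called higher of 33 stands beside 6.91% of all genes tested, and the 1 called lower beside 6.42%, so the share of repair genes called was near the background in both directions. The median difference of the 33 genes was -0.05, against -0.02 over all genes tested. Leaving out 1 array moved that median to between -0.09, when Dcr KO replicate 1 was left out, and -0.01, when Dcr KO replicate 3 was, and reading each gene from its brightest probe set gave -0.09. The 95% interval of the difference lay inside 1.5-fold either way for 25 of the 33 genes, against 59.2% of all genes tested. The 8 genes whose interval reached past 1.5-fold were Atr, Brca2, Rad54l, Blm, Xrcc4, Prkdc, Xrcc1 and Fanci, and for 30 of the 33 the interval stayed inside 2-fold. For 3 of the 25, Rad50, Xrcc6 and Pms2, the gene mean includes probe sets under the minimum, and the interval passed 1.5-fold without those. With all dim probe sets left out, 24 of 35 listed genes lay inside 1.5-fold, against 49.3% of the 9702 genes then tested.

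**Figure D1:**
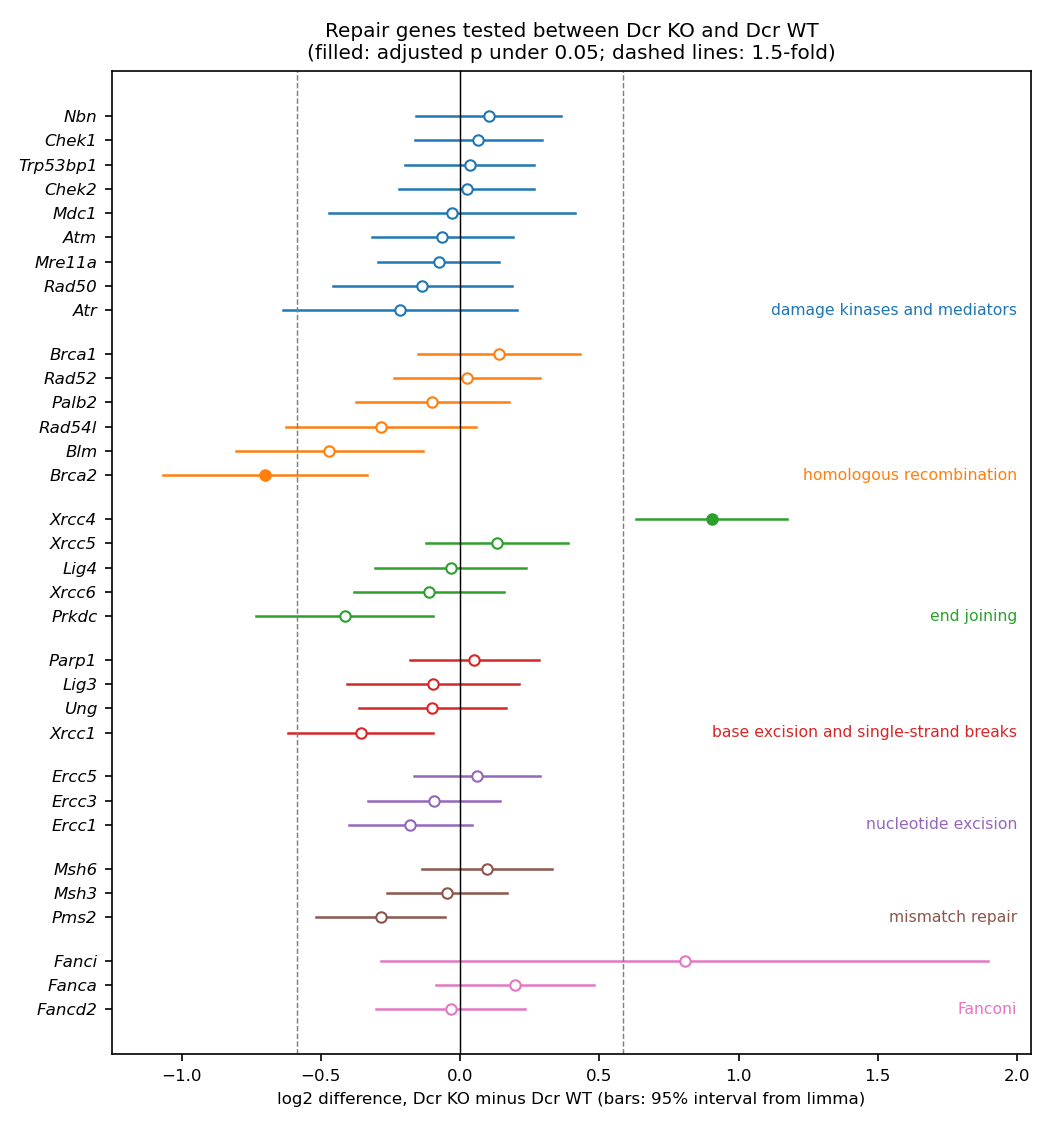
The log2 difference between Dcr KO and Dcr WT of each of the 33 tested repair genes (horizontal axis, point) with its 95% interval from limma (bar), grouped by branch of repair. Xrcc4 at 0.90 and Brca2 at -0.70 are the 2 filled points, and most other intervals lie between the dashed lines at 1.5-fold.

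The order of the arrays, read without a test, gave no excess over the background. All Dcr KO arrays lay below all Dcr WT arrays for 7 of the 33 genes, Brca2, Rad54l, Blm, Prkdc, Xrcc1, Ercc1 and Pms2, where 21.2% of all genes tested did so. The opposite order was seen for Xrcc4 alone, 1 of the 33, where 17.7% of all genes tested did so. Both shares are at or under the background. At an unadjusted p under 0.05, 5 of the 33 genes were lower (Brca2, Blm, Prkdc, Xrcc1 and Pms2), where 17.3% of all genes tested were, and 1 was higher (Xrcc4), where 14.7% were. Differences below 0 were seen for 20 of the 33 genes and for 53.3% of all genes tested.

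**Figure D2:**
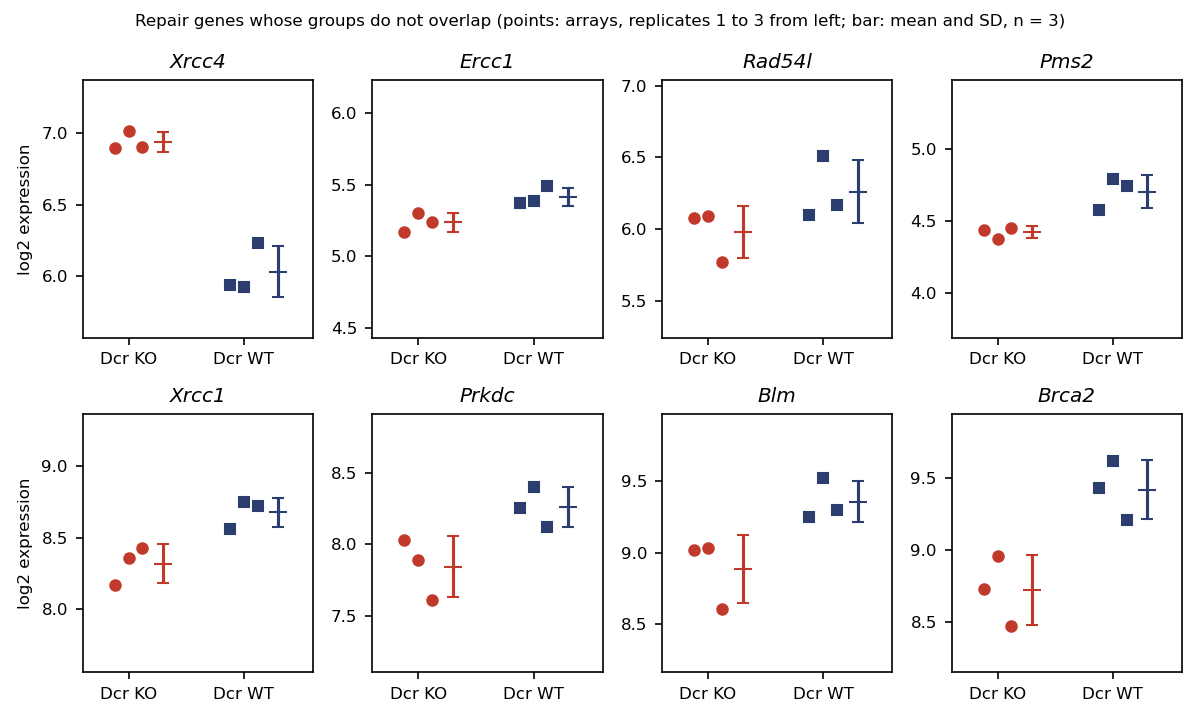
Log2 expression on each array (points, replicates 1 to 3 from left) with the mean and SD of each group (n = 3) for the 8 repair genes whose groups do not overlap, Dcr KO left of Dcr WT. Xrcc4 is the 1 gene with Dcr KO above, from 6.90 to 7.02 against 5.93 to 6.24 in Dcr WT.

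Of the listed genes, Xrcc4 and Brca2, the 2 called, and Blm, the next by unadjusted p, separate the groups most. Their promoters are shown here. They are RefSeq windows of GRCm38.p6, 250 bases before to 50 after the start of the gene, written along the gene's own strand. Capitals mark a match on either strand to an E2F site (TTCCCGC or TTGGCGC, bound by factors that switch on genes of S phase) in Xrcc4 and Brca2, and to a CCAAT box, bound by NF-Y, in Blm.
Xrcc4, chr13:90089559-90089858, minus strand: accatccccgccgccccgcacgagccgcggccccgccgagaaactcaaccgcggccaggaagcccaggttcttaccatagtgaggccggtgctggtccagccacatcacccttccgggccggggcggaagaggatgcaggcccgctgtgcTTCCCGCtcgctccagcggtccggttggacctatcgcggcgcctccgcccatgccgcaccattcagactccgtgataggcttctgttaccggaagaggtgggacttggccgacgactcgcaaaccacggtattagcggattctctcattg
Brca2, chr5:150522371-150522670, plus strand: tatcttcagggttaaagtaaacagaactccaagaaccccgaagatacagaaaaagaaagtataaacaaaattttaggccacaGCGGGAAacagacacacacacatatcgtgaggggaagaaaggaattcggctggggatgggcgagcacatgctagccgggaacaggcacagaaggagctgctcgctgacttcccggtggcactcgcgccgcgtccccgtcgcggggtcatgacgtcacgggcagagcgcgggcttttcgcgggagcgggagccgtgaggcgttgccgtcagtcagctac
Blm, chr7:80534949-80535248, minus strand: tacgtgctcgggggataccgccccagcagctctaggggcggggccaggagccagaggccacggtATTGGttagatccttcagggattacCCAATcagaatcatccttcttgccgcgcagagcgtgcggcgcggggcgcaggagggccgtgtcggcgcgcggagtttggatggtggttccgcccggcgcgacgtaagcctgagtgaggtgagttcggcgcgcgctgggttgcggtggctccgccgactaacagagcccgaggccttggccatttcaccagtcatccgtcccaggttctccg
The match begins at base -100 from the start in Xrcc4 and, reading on the other strand, at -168 in Brca2, and the pair of CCAAT matches in Blm begins at -186 and -161. Xrcc4 and Brca2, the 2 listed genes called, both hold the letters TTCCCGC, on opposite strands. Of the 39 genes, 32 had a window in the table, with 34 windows in all. TTCCCGC was in 12 of the 34 windows (35.3%), against 8.89% of 9227 windows of tested genes and 4.60% of all 32851 windows. TTGGCGC was in 4 windows (11.8%), against 4.68% of those of tested genes and 2.45% of all. Either E2F spelling was in 16 windows (47.1%), among them those of Atm, Chek1, Chek2, Brca1, Msh6 and Fanci, against 13.0% and 6.81%. CCAAT was in 19 (55.9%, against 38.0% and 37.4%), the NRF1 site GCATGCGC in 4 (11.8%, against 5.78% and 2.71%) and TTTGAA, the cell cycle homology region, in 2 (5.88%, against 11.8% and 17.9%). E2F letters were thus more frequent in front of these genes than in front of all tested genes. Whether holding them goes with a direction of change was not tested. A match of letters does not show that a factor binds there.

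The kinases and mediators of the damage signal differed little between the groups in their gene means. All 9 were tested, and their median difference was -0.03. None was called at an adjusted p under 0.05 or reached an unadjusted p under 0.05. Without its dim probe set, Rad50 differed by -0.52 (interval -0.92 to -0.12). Atm, the kinase that answers double-strand breaks, had 8.57, 8.64 and 8.58 in Dcr KO and 8.84, 8.57 and 8.58 in Dcr WT. Its difference of -0.06 had a 95% interval of -0.32 to 0.19. The groups overlapped, and the interval reached no further than a 1.24-fold fall or a 1.14-fold rise. Atr, the kinase of stalled forks, differed most in this branch, with 8.07, 8.22 and 7.55 in Dcr KO and 8.17, 8.32 and 8.0 in Dcr WT. The difference of its gene mean was -0.22 (interval -0.63 to 0.20, adjusted p = 0.444). Most of that came from Dcr KO replicate 3, without which the difference was -0.02. The Atr probe sets differed from each other. The furthest had 7.51, 7.76 and 7.27 in Dcr KO and 7.92, 7.94 and 7.89 in Dcr WT, with no overlap. Its difference of -0.40 (interval -0.75 to -0.06) was not called (adjusted p = 0.130 from limma over probe sets). In the other Atr probe sets, which differed by -0.16 and -0.08, the groups overlapped.

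Chek1, the checkpoint kinase downstream of ATR, differed by 0.07 (interval -0.16 to 0.29) and Chek2, that downstream of ATM, by 0.02 (-0.22 to 0.26). The probe sets of Chek1 differed from each other. One had 9.73, 9.72 and 9.57 in Dcr KO and 9.26, 9.21 and 9.45 in Dcr WT, with Dcr KO above on every array, while the brightest had 9.60, 9.76 and 9.68 in Dcr KO and 9.70, 9.78 and 9.68 in Dcr WT. The mediators Trp53bp1 (53BP1, which shields broken ends from resection) and Mdc1 (the adaptor on phosphorylated H2AX) differed by 0.03 and -0.03, with Mdc1 ranging most, 7.75 to 8.51 in Dcr KO and 7.98 to 8.27 in Dcr WT.

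The 3 subunits of the complex that tethers and trims broken ends are Mre11a, a nuclease, Rad50, an ATPase, and Nbn, which recruits ATM. They differed by -0.08 (interval -0.29 to 0.14), -0.13 (-0.46 to 0.19) and 0.10 (-0.16 to 0.36). For Rad50 that mean hides a difference between probe sets. The 1 Rad50 probe set above the minimum had 8.24, 8.44 and 7.86 in Dcr KO and 8.69, 8.87 and 8.54 in Dcr WT, a difference of -0.52 (adjusted p = 0.116 over 18789 probe sets) with no overlap between groups, and the other was under the minimum. The 1 Mre11a probe set above the minimum differed by -0.26 (interval -0.58 to 0.06), further than its gene mean. The interval of Nbn spanned 0, and whether the 3 subunits share a direction was not tested.

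In the gene means, homologous recombination held the lowest differences of the listed genes, those of Brca2 and Blm. Without its dim probe set, Rad50 of the damage mediators differed by -0.52, further than Blm at -0.47. Of its 9 listed genes, 6 were tested, Brca2 was called lower, and the median difference was -0.19. Brca2 had 8.73, 8.96 and 8.47 in Dcr KO, against 9.43, 9.62 and 9.21 in Dcr WT, from 1 probe set. The highest Dcr KO array was under the lowest Dcr WT array. The difference was -0.70 (SE 0.16, interval -1.07 to -0.33, adjusted p = 0.0299 from limma), and Brca2 was number 316 from the bottom of the 8782 genes. The call of Brca2 held without Dcr KO replicate 2 (adjusted p = 0.0464) and was lost when any other single array was left out (adjusted p = 0.0515 to 0.0729), with differences between -0.82 and -0.575 in those 6 fits. In the fit over probe sets, the same values gave an adjusted p of 0.0542.

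Blm, the helicase that unwinds recombination intermediates, had 9.02, 9.03 and 8.61 in Dcr KO and 9.25, 9.52 and 9.30 in Dcr WT, with no overlap. Its difference of -0.47 (interval -0.81 to -0.13) did not pass (adjusted p = 0.0687). Rad54l, a motor protein that aids strand invasion, had 6.08, 6.09 and 5.77 in Dcr KO and 6.10, 6.51 and 6.17 in Dcr WT, a difference of -0.28 (adjusted p = 0.225). The groups of Rad54l were apart by very little in the gene mean, and more in its brightest probe set. That probe set had 9.02, 8.94 and 8.60 in Dcr KO and 9.36, 9.30 and 9.32 in Dcr WT, a difference of -0.47. With each gene read from its brightest probe set, Rad54l passed (adjusted p = 0.0498).

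Brca1, which promotes resection and recruits PALB2, did not follow Brca2. It had 7.37, 7.45 and 7.48 in Dcr KO and 7.44, 7.05 and 7.39 in Dcr WT, a difference of 0.14 (interval -0.15 to 0.43). Without its dim probe set, Brca1 differed by 0.25 (interval -0.06 to 0.57). Palb2, the bridge between BRCA1 and BRCA2, differed by -0.10 (interval -0.38 to 0.18) and Rad52, an annealing protein, by 0.025 (-0.24 to 0.29, and -0.11 in its brightest probe set). Bard1, the partner of BRCA1, and Wrn, a helicase, lay under the minimum, at 3.47 and 3.63 in Dcr KO and 3.79 and 3.51 in Dcr WT. Whether the difference of Brca2 exceeds that of Brca1 was not tested.

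The cell cycle genes of the array give the setting for this branch. Of 16 S phase and G2/M genes tested, 1 was called lower, which is 6.25% and near the 6.42% of all genes tested. It was Plk1, a mitotic kinase (10.01 in Dcr KO and 10.49 in Dcr WT, a difference of -0.48, adjusted p = 0.0288 from limma). None was called higher, where 6.91% of all genes tested were, and the median difference was -0.10. Differences were below 0 for 13 of the 16 and above 0 for 3, where 53.3% of all genes tested were below 0. All Dcr KO arrays lay below all Dcr WT arrays for 6, where 21.2% of all genes tested did so. At an unadjusted p under 0.05, 4 were lower (Ccna2, Top2a, Mki67 and Plk1), where 17.3% were. None had the opposite order, where 17.7% did, or was higher at that p, where 14.7% were. The summed linear level of the cell cycle genes was 29349 to 31845 in Dcr KO and 31646 to 34632 in Dcr WT. The part of these levels in the values of Brca2 and Blm was not tested.

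End joining held the 1 rise past the threshold. Xrcc4 had 6.90, 7.02 and 6.90 in Dcr KO, against 5.94, 5.93 and 6.24 in Dcr WT, or 6.94 ± 0.07 and 6.03 ± 0.17 (SD, n = 3 each). Every Dcr KO array was above every Dcr WT array by more than either group's range. The difference was 0.90 (SE 0.12, interval 0.63 to 1.17, adjusted p = 0.00563 from limma), or 1.87-fold with an interval of 1.55 to 2.26. Xrcc4 was number 182 from the top of the 8782 genes tested.

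Both probe sets of Xrcc4 showed the rise, at different brightness. The brighter had 8.26, 8.05 and 7.97 in Dcr KO and 7.0, 7.06 and 7.39 in Dcr WT, a 1.92-fold difference (adjusted p = 0.0188 over 18789 probe sets). The dimmer had 5.53, 5.98 and 5.83 in Dcr KO and 4.88, 4.79 and 5.08 in Dcr WT, a 1.82-fold difference (adjusted p = 0.0253). They were the only probe sets called of the 58 above the minimum that belong to the listed genes, where 7.75% of all probe sets tested were called. Xrcc4 passed in each of 15 alternative settings, the 6 fits without 1 array included (adjusted p = 0.0134 to 0.0298 in those 6).

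The partners of XRCC4 did not rise with it. Lig4, the ligase that XRCC4 holds, had 8.02, 7.85 and 7.91 in Dcr KO and 7.83, 8.15 and 7.90 in Dcr WT, a difference of -0.03 (interval -0.31 to 0.24). The Ku subunits Xrcc5 and Xrcc6, which cap broken ends, differed by 0.13 (interval -0.12 to 0.39) and -0.11 (-0.38 to 0.16). The 1 probe set of Xrcc6 above the minimum differed by -0.26, with an interval of -0.64 to 0.13. The upper bounds for Lig4 and Xrcc6, and that for Xrcc5, are below the lower bound of 0.63 for Xrcc4, although the difference between these genes was not itself tested. Prkdc, the catalytic subunit of the DNA-dependent kinase that Ku recruits, had 8.03, 7.89 and 7.61 in Dcr KO and 8.25, 8.40 and 8.12 in Dcr WT. The Prkdc arrays did not overlap, and the difference of -0.41 (interval -0.73 to -0.10) did not pass (adjusted p = 0.0834). Within this branch the scaffold was thus higher, the gene means of the ligase and Ku were not called, and the kinase had the lowest difference.

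**Figure D3:**
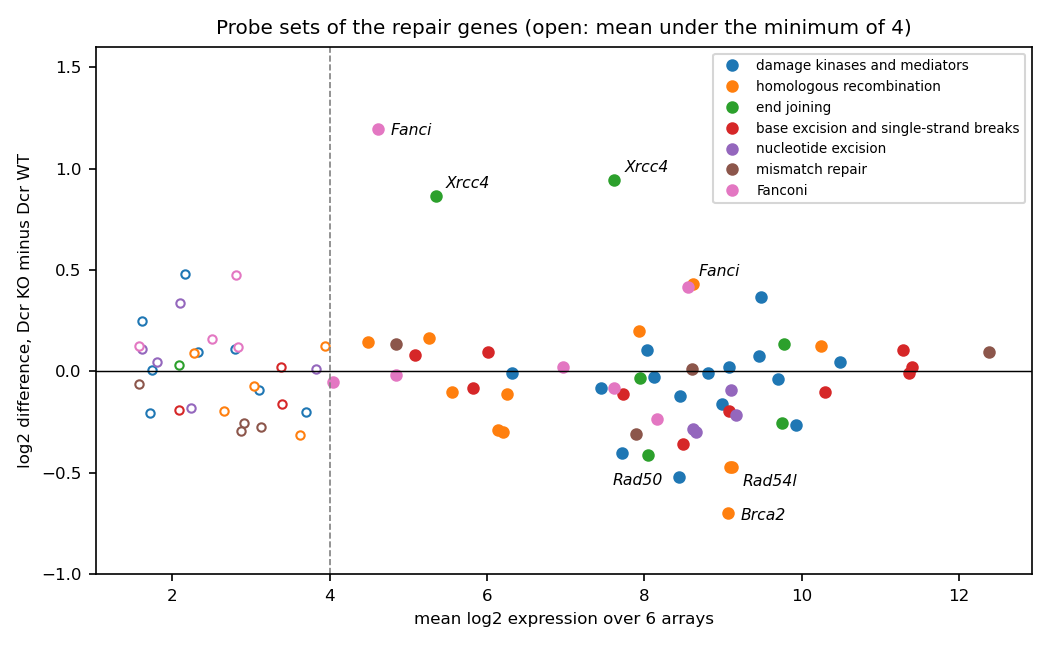
Difference between Dcr KO and Dcr WT (vertical axis, log2) of each of the 88 probe sets of the listed genes against its mean level over 6 arrays (horizontal axis, log2), coloured by branch, with the 30 probe sets under the minimum of 4 drawn open. Both probe sets of Xrcc4 lie high at 0.86 and 0.94, and those of Fanci differ from each other at 1.197 and 0.417.

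Base excision and the repair of single-strand breaks had no call among 4 tested genes, and a median difference of -0.10. Xrcc1, the scaffold that gathers the ligase and polymerase at single-strand breaks, had 8.17, 8.36 and 8.43 in Dcr KO and 8.56, 8.75 and 8.72 in Dcr WT. The groups did not overlap, and the difference of -0.36 (interval -0.62 to -0.10) did not pass (adjusted p = 0.0725). Lig3, the ligase bound to XRCC1, differed by -0.10 (interval -0.41 to 0.21). Parp1, the sensor of strand breaks, differed by 0.05 (interval -0.18 to 0.28). Ung, which removes uracil, had 10.3, 10.4 and 10.1 in Dcr KO and 10.3, 10.4 and 10.4 in Dcr WT, a difference of -0.10. Ogg1, which removes oxidized guanine, lay under the minimum at 3.36 in Dcr KO and 3.43 in Dcr WT.

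Nucleotide excision repair had no call among 3 tested genes. Ercc1, which with its partner nuclease cuts beside bulky adducts, had 5.17, 5.30 and 5.24 in Dcr KO and 5.37, 5.39 and 5.49 in Dcr WT, with no overlap. Its difference of -0.18 (interval -0.40 to 0.04) did not pass (adjusted p = 0.234), and its probe sets above the minimum differed by -0.28 and -0.30. Ercc3, a helicase of TFIIH, and Ercc5, the other nuclease of the pathway, differed by -0.09 (interval -0.33 to 0.14) and 0.06 (-0.17 to 0.29). The direction of Ercc5 turned without its dim probe set, to -0.22. All 3 intervals lay inside 1.5-fold, with the dim probe sets or without. Ercc2, the other helicase of TFIIH, averaged 2.76 in Dcr KO and 2.70 in Dcr WT, under the minimum.

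Mismatch repair likewise had no call among 3 tested genes. Of the probe sets of Pms2, an endonuclease subunit of the pathway, 1 was above the minimum. The gene mean had 4.44, 4.37 and 4.45 in Dcr KO and 4.58, 4.797 and 4.74 in Dcr WT, with no overlap. The difference was -0.29 (interval -0.52 to -0.05, adjusted p = 0.0970). The probe set above the minimum differed by -0.31, with an interval of -0.66 to 0.05 that passes 1.5-fold. Msh6, which recognises single mispairs, had 12.5, 12.4 and 12.4 in Dcr KO and 12.3, 12.5 and 12.2 in Dcr WT, a difference of 0.10 (interval -0.14 to 0.33). Msh3, which recognises larger loops, differed by -0.05 (interval -0.26 to 0.17), and by 0.07 without its dim probe sets.

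The Fanconi genes, which unhook interstrand crosslinks, had no call among 3 tested. Fanci, which with FANCD2 forms the clamp that marks a crosslink, had 6.32, 7.14 and 7.53 in Dcr KO and 6.61, 5.12 and 6.84 in Dcr WT. The groups overlapped, the difference was 0.81, and its interval of -0.28 to 1.90 was the widest of the 33 genes (adjusted p = 0.274). The spread came from 1 of the 2 probe sets, which had 3.88, 5.44 and 6.34 in Dcr KO and 4.96, 1.79 and 5.32 in Dcr WT. The brighter probe set had 8.76, 8.83 and 8.71 in Dcr KO and 8.25, 8.44 and 8.36 in Dcr WT, a 1.33-fold difference with no overlap. Read from that brightest probe set, Fanci passed (adjusted p = 0.0374). Fancd2 differed by -0.03 (interval -0.30 to 0.23) and Fanca, a subunit of the core complex, by 0.20 (-0.09 to 0.48). The direction of Fanca turned to -0.08 without its dim probe set. Fancc, another core subunit, lay under the minimum at 3.44 in Dcr KO and 3.35 in Dcr WT.

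The arrays themselves were not equal in these genes. Dcr KO replicate 3 was the lowest of the 3 Dcr KO arrays for 18 of the 33 genes (54.5%), against 40.9% of all genes tested, and the lowest of all 6 arrays for 12. It was lowest in 7 of the 9 kinases and mediators, 4 of the 6 recombination genes and 3 of the 5 end joining genes, and in none of the nucleotide excision or mismatch genes. The median deviation of the 33 genes from their Dcr WT means was -0.02, 0.01 and -0.10 on the 3 Dcr KO arrays and -0.01, 0.07 and -0.04 on the 3 Dcr WT arrays, so replicate 3 stood lowest of the 6. The same array was lowest of the Dcr KO arrays in 12 of 16 S phase and G2/M genes. The part of that array's RNA or of its cells in these values was not tested. Without it, the difference was -0.575 for Brca2 (adjusted p = 0.0671) and 0.92 for Xrcc4 (adjusted p = 0.0138).

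**Figure D4:**
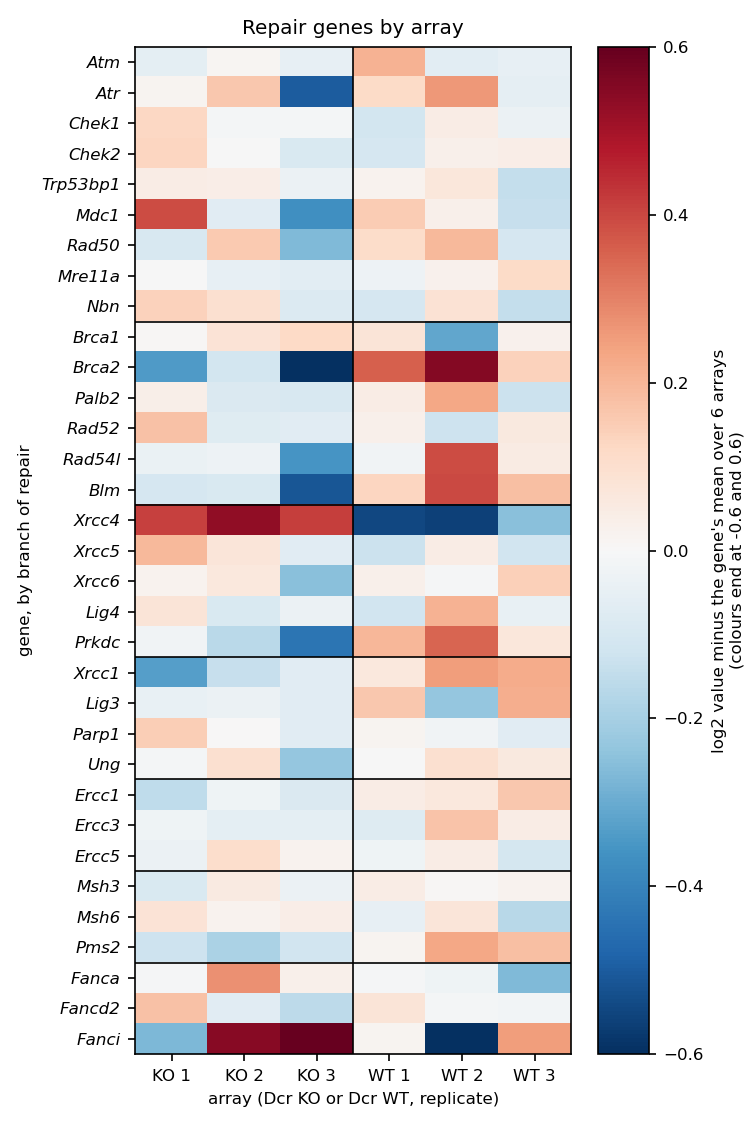
Log2 value of each of the 33 tested repair genes minus the gene's mean over 6 arrays (colour, ends at -0.6 and 0.6), with Dcr KO arrays in the left columns, Dcr WT arrays in the right ones and black lines between branches. Dcr KO replicate 3 is the lowest Dcr KO array in 18 of the 33 rows. The row of Xrcc4 is the 1 row in which every Dcr KO array is above every Dcr WT array.

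Further genes of the same pathways, 79 in number and listed by role, leaned lower in Dcr KO. The list was made with earlier results of these data known, so the lean describes these genes and is no test of the pathways. Of these, 60 were tested. None was called higher, where 6.91% of all genes tested were. Called lower were 7, which is 11.7% against the 6.42% of all genes tested called lower. At an unadjusted p under 0.05, 2 were higher (Gen1 and Fancm), where 14.7% of all genes were. At the same level 20 were lower, where 17.3% of all genes were. The median difference of the 60 genes was -0.18, against -0.02 over all genes tested. All Dcr KO arrays lay below all Dcr WT arrays for 19 of the 60, where 21.2% of all genes tested did so. The opposite order was seen for 4, where 17.7% of all genes tested did so. The 7 genes were Rad9a, Uimc1, Xrcc3, Nabp2, Mpg, Parp2 and Fance, from 4 branches.

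Rad9a, a subunit of the clamp that activates ATR, had 6.55, 6.58 and 6.73 in Dcr KO, against 7.68, 7.32 and 7.55 in Dcr WT. It fell by 0.90 (SE 0.12, adjusted p = 0.00630) to 53.7% of the Dcr WT level, and passed in each of the 15 alternatives. The other subunits of that clamp, Hus1 and Rad1, differed by 0.11 and -0.04, and the loader Rad17 by -0.06. Of these 4 genes, Rad9a alone was called. Fance, a Fanconi core subunit, had 6.01, 5.96 and 4.98 in Dcr KO and 7.03, 6.79 and 7.25 in Dcr WT, a difference of -1.375 (adjusted p = 0.0197). It was 38.6% of the Dcr WT level, the lowest share of all repair genes tested, and Dcr KO replicate 3 stood apart from the others. Without that array the difference was -1.04, and the call was lost without Dcr WT replicate 1 (adjusted p = 0.0528) or replicate 3 (0.0796).

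Xrcc3, a recombinase paralogue that acts in homologous recombination, had 4.90, 4.77 and 4.62 in Dcr KO and 5.39, 5.52 and 5.39 in Dcr WT, a difference of -0.67 (adjusted p = 0.0113). Its probe sets disagreed in size, at -0.36 and -0.99, and it was lost when read from the brighter (adjusted p = 0.150). The remaining 4 fell by less in their gene means and each passed in only 1 of the 6 fits without 1 array. They were Uimc1 (RAP80, which brings BRCA1 to ubiquitin at breaks) at -0.60 (adjusted p = 0.0332), Parp2 (a second sensor of strand breaks) at -0.59 (0.0335), Nabp2 (a single-strand binding protein) at -0.53 (0.0298) and Mpg (a glycosylase for alkylated bases) at -0.48 (0.0338). The probe sets of Mpg disagreed too, and the brightest fell by 1.02 (adjusted p = 0.0133 when read from it). The 12 further base excision genes tested had a median difference of -0.36, the lowest of the branches with more than 1 tested gene, with 2 called lower, Parp2 and Mpg. Dcr KO replicate 3 was the lowest Dcr KO array in 9 of those 12, and its part in that median was not tested.

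**Figure D5:**
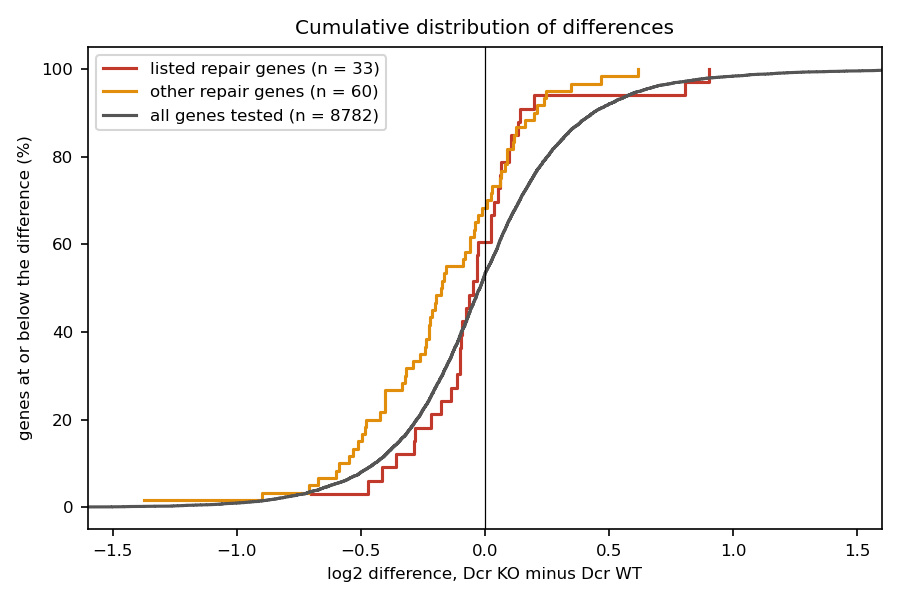
Share of genes (vertical axis, percent) at or below each log2 difference between Dcr KO and Dcr WT (horizontal axis) for the 33 listed repair genes, 60 further repair genes and all 8782 genes tested. The curve of the further repair genes lies left of that of all genes over most of its length, with medians of -0.18 and -0.02, and that of the listed genes is steeper, with a median of -0.05.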

How the data were processed

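The 6 arrays were grouped by their titles, with 3 Dcr KO and 3 Dcr WT arrays taken 5 days after transfection. The values that the authors deposited are log2 expression, 1 for each of 45037 probe sets on each array, and GCRMA 2.20.0 and R 2.11.1 are listed among the submitters' processing tools. No source used here says whether other arrays entered the same normalization. Probe sets with 1 symbol in the platform annotation (34945) were averaged by gene on the log2 scale, after the geometric mean that the methods give for spot replicates. Those with several symbols (932) or none here (9160) were left out, and 0 array columns were unused. Arrays give no read depth, and precision is limited by the number of arrays.

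Dcr KO was compared with Dcr WT by limma 3.58.1 under R 4.3.3 (lmFit, then eBayes) for 8782 genes. These had a mean of 16 or more (log2 of 4) over the 6 arrays. P-values were adjusted after Benjamini and Hochberg over all of these genes, with calls at 0.05. The same fit was run on 18789 probe sets. Spread between arrays is the only error the p-values measure. The fit was tested on simulated data. Tables and figures were made with Python 3.11.15, pandas 2.3.3, numpy 2.4.6 and matplotlib 3.10.9. Promoter windows came from RefSeq (GRCm38.p6) and were matched by symbol.

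The genes and lists were chosen with earlier results of these data known. Named genes are all listed genes by branch, with values per array for those called and for the largest difference of each branch, the further repair genes past the threshold, and Dicer1. Other genes given per array, and those named as partners of a called gene, were chosen after their values were seen. Alternatives changed the minimum level, the choice of probe sets, the scaling, the variance trend and the arrays included, or added a replicate block.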

Additional observations from a re-analysis of the deposited data

How the results depend on the processing

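The call of Xrcc4 and the median difference of the listed repair genes kept their direction in all 15 alternatives, the median between -0.09 and -0.01, and no listed or further repair gene called in the report reversed. With each gene read from its brightest probe set, 2 listed genes were called higher (Xrcc4 and Fanci), and 2 lower (Brca2 and Rad54l), while 1 further repair gene, Fancm, was called higher and 10 were lower, with Ddb2, Ercc8, Mus81 and Neil3 gained and Xrcc3 lost. Leaving out 1 array at a time gave 0 to 1 listed genes called lower, 0 to 1 further repair genes called higher (Fancm, without Dcr KO replicate 1), 2 to 5 further repair genes called lower, and 357 to 783 genes called in all, against 1171 with all arrays. For same-numbered arrays the correlations of deviations were -0.217, -0.022 and 0.029, and for the other pairs they ranged from -0.227 to 0.314. How the arrays were made or matched cannot be read from these correlations. With a replicate block, 597 genes and 4 further repair genes lower were called, Uimc1, Parp2 and Mpg being lost, and 59.3% of the calls were higher, against 51.8% without it. Listed genes kept 1 call in each direction under the block. Why calls were lost was not tested. The added alternative that left out dim probe sets was chosen after seeing the data and changed no call of a listed gene. With 3 arrays a group, the smallest absolute difference called over all genes was 0.34, and most listed genes differed by less than that.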

Other observations

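The genes next to Xrcc4 and Brca2 on their chromosomes were looked up after the calls were known. Tmem167, the nearest protein-coding gene to Xrcc4 on one side, averaged 6.31 ± 0.09 in Dcr KO and 6.26 ± 0.15 in Dcr WT (SD, n = 3 each), a difference of 0.05 (adjusted p = 0.780 from limma). Vcan and Hapln1, on the other side of Xrcc4, lay under the minimum, at 3.43 and 1.78 in Dcr KO and 3.00 and 1.65 in Dcr WT. Fry, N4bp2l1 and N4bp2l2, near Brca2, lay under the minimum as well. Among the further repair genes, Neil3, a glycosylase for oxidized bases, was under the minimum over all arrays and not tested, with 3.60, 3.42 and 3.04 in Dcr KO and 4.97, 4.11 and 4.36 in Dcr WT. Its groups did not overlap, it was called lower with no minimum level (adjusted p = 0.0267 from limma) and with the minimum set on the Dcr WT arrays alone (0.0236), and it was picked out after its values were seen.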
